A study of Mus musculus with 6 samples.

Results

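The genes for the enzymes that make deoxynucleotides, the building blocks of DNA, were examined in RNA-seq read counts of mouse retinae at postnatal day 21 (P21). The rule that chose them used no measured value, though earlier results of these data were known when it was made. The 9 genes were chosen by name for the known function of their products. They are Rrm1, Rrm2 and Rrm2b (the subunits of ribonucleotide reductase), Tyms, Tk1 and Dtymk (the supply of thymidine nucleotides), Dut and Dctpp1 (hydrolases of the nucleotide pool) and Cad (the entry into pyrimidine synthesis). All 9 were found among the 24062 genes of the count table, and all 9 were among the 16904 genes that had a summed count of at least 10 and were tested.

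The study compared 3 libraries of Chx10-Cre Rb1/p107/Hells triple-knockout (TKO) retinae with 3 libraries of Chx10-Cre Rb1/p107 double-knockout (DKO) retinae. The labels give the strain as C57BL/6 and the study's methods as C57BL/6N. Both groups shared the floxed Rb1 alleles, the germline loss of p107 (gene Rbl1) and the Cre, so the groups differ by the floxed Hells alleles, and both sexes were used per the study's methods. Hells encodes a chromatin remodeler of the SNF2 family. Chx10-Cre acts in retinal progenitors in a mosaic pattern, so every retina also held cells in which the floxed alleles were intact, and no wild-type retina was compared here. The counts of a library summed to 12083082, 12888233 and 10343907 in TKO replicates 1, 2 and 3, and to 12635061, 13455972 and 14203098 in DKO replicates 1, 2 and 3. The labels name separate samples and do not say which animal each came from, so the p-values measure the spread between these samples.

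Cells need 4 deoxynucleotides in balance to copy DNA. Ribonucleotide reductase, built from the large subunit RRM1 and a small subunit, removes the oxygen from ribonucleotides; RRM2 is the small subunit of the S phase, and RRM2B, a target of p53, serves DNA repair and the mitochondrial genome in cells that do not divide. Thymidine nucleotides come from thymidylate synthase or from thymidine kinase, and most genes of this pathway are known targets of the E2F factors that RB1 and p107 hold back. In the normal mouse retina cell division has ended well before P21.

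In TKO retinae, 8 of the 9 genes had lower estimates than in DKO retinae (all 9 when libraries were scaled by total counts), and the size ranged from a large fall of Tk1 and Rrm2 to no detectable difference of Cad and Rrm2b. Values below are counts scaled by library size (TMM-normalized counts), and log2 fold changes are TKO relative to DKO from edgeR's quasi-likelihood test with p-values adjusted over all genes tested. A gene was called lower when its adjusted p was at most 0.05, its log2 fold change at most -1 and its mean normalized count at least 10. By these criteria 4 of the 9 genes were called lower (Rrm1, Rrm2, Tyms and Tk1), where 4.38% of all genes tested were, and none was called higher. With the adjusted p alone 6 of the 9 were lower, Dut and Dctpp1 added, where 9.2% of all genes were, and none was higher. In 7 of the 9 genes every TKO library lay below every DKO library, against 20.6% of all genes. The median log2 fold change of the 9 genes was -0.80, and that of all genes tested was -0.01. Hells itself had 60.8, 68.4 and 83.5 normalized counts in the TKO libraries and 678, 523 and 395 in the DKO libraries, so each library followed its label. Rb1 (log2 fold change 0.34, adjusted p = 0.0388, edgeR) and Rbl1 (0.13, adjusted p = 0.839, edgeR), which are targeted in both groups, still gave counts.

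**Figure D1:**
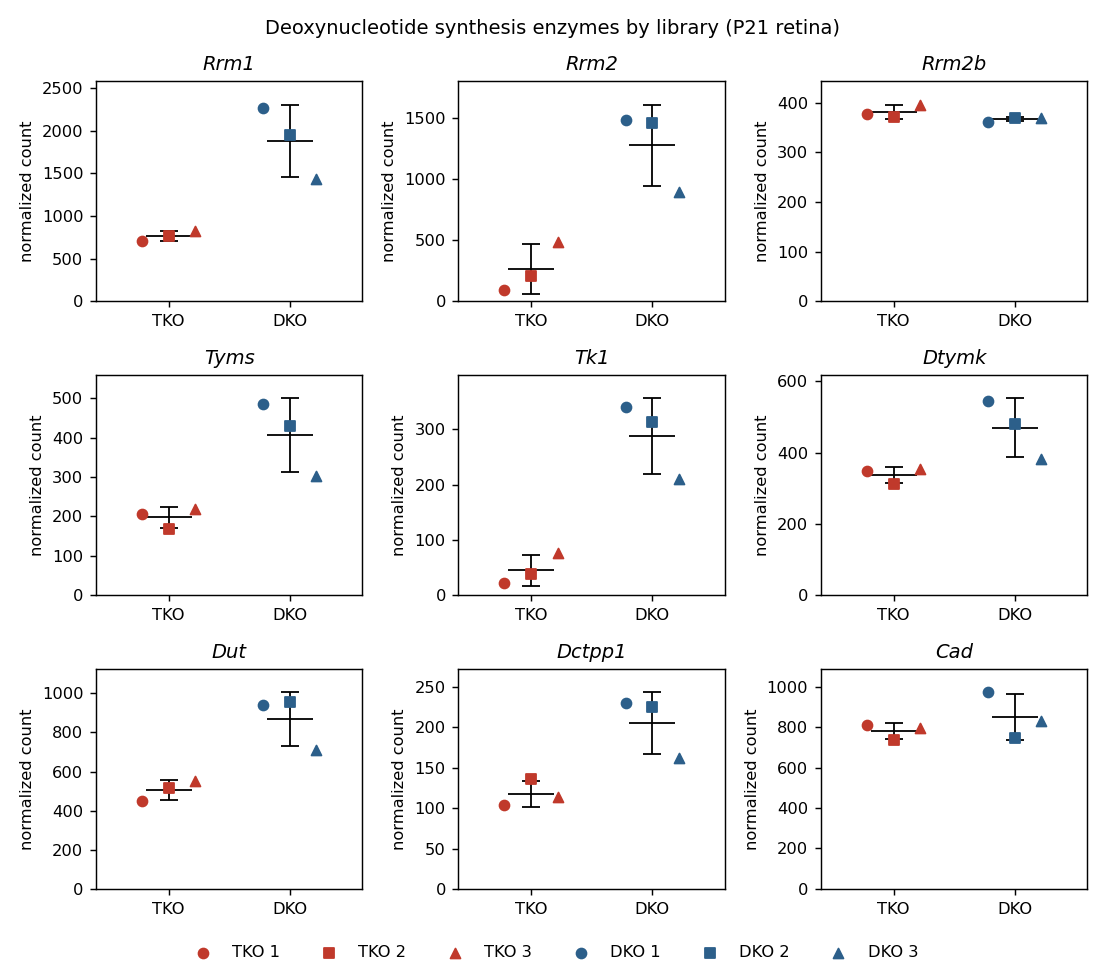
Normalized counts of the 9 enzymes in each of the 6 libraries (y axis from 0; red, TKO; blue, DKO; the shape of a point marks the replicate number; black line and bars, mean and SD, n = 3). As a ratio, Rrm2 and Tk1 show the widest gap between the group means, and Rrm2b lies between 362 and 396 in all 6 libraries.

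Ribonucleotide reductase showed a split between its subunits. Rrm1 (chr7:102441695-102469771, plus strand) encodes the large catalytic subunit, and it had 705, 768 and 828 normalized counts in TKO libraries 1, 2 and 3 against 2266, 1955 and 1431 in DKO libraries 1, 2 and 3. The groups did not overlap, and the TKO libraries lay close to each other. Its mean was 767 ± 61.6 in TKO and 1884 ± 422 in DKO (SD over 3 libraries). The log2 fold change was -1.30 (standard error 0.160, 95% interval -1.66 to -0.93, adjusted p = 0.00603, edgeR). Rrm2 (chr12:24708241-24714146, plus strand), the S-phase small subunit, had 94.0, 206 and 486 normalized counts in TKO libraries against 1479, 1453 and 894 in DKO libraries. Every TKO library was below every DKO library, but TKO 1 was far below TKO 3, and DKO 3 was the lowest of its group. The means were 262 ± 202 and 1275 ± 331; the log2 fold change was -2.29 (standard error 0.482, 95% interval -3.39 to -1.19, adjusted p = 0.0173, edgeR). As a share of the DKO mean, Rrm2 stood at 7.37% in TKO 1, 16.2% in TKO 2 and 38.1% in TKO 3, whereas Rrm1 stood at 37.4%, 40.8% and 44.0%. Rrm2b (chr15:37923952-37961318, minus strand), the small subunit of resting cells, had 377, 371 and 396 normalized counts in TKO against 362, 370 and 370 in DKO libraries. The 6 values were nearly alike, and although the TKO values lie above the DKO values (as 18% of all genes do), the log2 fold change was 0.05 (95% interval -0.15 to 0.26, adjusted p = 0.725, edgeR), and -0.10 with total-count scaling. The change of Rrm2 no longer passed 0.05 in edgeR without TKO replicate 2 (log2 fold change -2.14, adjusted p = 0.0790), DKO replicate 1 (-2.17, adjusted p = 0.0634) or DKO replicate 2 (-2.19, adjusted p = 0.0666), while without TKO replicate 3 it was larger (-3.07, adjusted p = 0.00202); with robust dispersion estimates its adjusted p was 0.0686. Rrm1 was called lower whichever library was left out.

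Promoter sequences of the reductase genes Rrm1 and Rrm2 are shown because both were called lower and are known E2F targets. The sequences are from RefSeq (GRCm38.p6). A promoter (250 bases before to 50 after the start) was matched for 8 of the 9 genes, all but Rrm2b. The Dut window (chr2:125247265-125247564, plus strand) lies inside the GENCODE gene model, which begins at 125247190. The sequence before that start was not searched for Dut. Capitals mark CCAAT, the box bound by NF-Y, on either strand, and 4 seven-letter words of the E2F site type, which share their first and last letters and differ in the pair between (TTCGCGC; with GG, CC or GC as the middle pair for the others), on either strand. The Rrm1 window is chr7:102441545-102441694 (plus strand, positions -150 to -1 from the RefSeq start), and the Rrm2 window is chr12:24708004-24708240 (plus strand, -250 to -14).
Rrm1: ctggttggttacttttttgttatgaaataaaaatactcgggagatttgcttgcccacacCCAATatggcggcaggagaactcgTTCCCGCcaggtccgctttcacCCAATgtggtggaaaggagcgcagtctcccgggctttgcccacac
Rrm2: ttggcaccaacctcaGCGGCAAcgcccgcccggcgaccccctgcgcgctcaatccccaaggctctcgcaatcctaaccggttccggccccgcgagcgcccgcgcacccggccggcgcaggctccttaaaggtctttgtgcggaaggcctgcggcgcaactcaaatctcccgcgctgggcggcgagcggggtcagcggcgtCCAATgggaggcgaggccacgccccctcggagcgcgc
In Rrm1 the E2F-type word TTCCCGC began at -67, between CCAAT boxes at -91 and -45. In Rrm2 a CCAAT box began at -50, and TTGCCGC lay on the other strand at -235. A CCAAT was present in 4 of the 8 promoters (Rrm1, Rrm2, Dtymk and Dctpp1), where 37.4% of all 32851 RefSeq promoters hold it. At least 1 of the 4 seven-letter words was present in 4 of the 8 (Rrm1, Rrm2, Dtymk and Cad), against 9.57% of all promoters; these shorter words were chosen after a longer form with a further T in front had matched none of the 8 (2.26% of all promoters). The letters TTTGAA of the CHR element, a box of many mitotic genes, were in 0 of the 8 windows (17.9% of all promoters). The promoters of Tyms and Tk1, which were called lower, held none of these words in this window.

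The ratio of the small subunits within a library does not depend on the scaling of libraries. Per length it depends on the transcript length used, here that of the principal transcript. Per transcript length, Rrm2 stood to Rrm2b as 0.518, 1.16 and 2.55 to 1 in TKO libraries 1, 2 and 3, and as 8.49, 8.16 and 5.02 to 1 in DKO libraries 1, 2 and 3. Thus Rrm2 was the more abundant small subunit transcript in every DKO library, and in TKO 1 it was the less abundant. The log2 ratio of counts was lower by 2.61 in TKO than in DKO retinae (exact permutation test over libraries, two-sided p = 0.1, the smallest that 3 against 3 can give). Rrm2 to Rrm1 was 0.243, 0.489 and 1.07 in TKO and 1.19, 1.36 and 1.14 in DKO libraries per transcript length. TKO 3 lay near the DKO libraries, and TKO 1 lay far below them. That log2 ratio differed by -1.28 (exact permutation p = 0.1), and by -0.76 without TKO replicate 1. After adjustment over the 3 ratios computed here, each exact permutation p was 0.1.

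Of the thymidine nucleotide genes, Tk1 fell most. Tk1 (chr11:117815526-117826092, minus strand) encodes the cytosolic thymidine kinase, which salvages thymidine in S phase. It had 21.8, 37.9 and 76.1 normalized counts in TKO against 340, 312 and 211 in DKO libraries. The lowest DKO library was 2.77 times the highest TKO library, the widest gap among the 9 genes. The mean was 45.3 ± 27.9 in TKO and 288 ± 68.0 in DKO, and the log2 fold change was -2.68 (standard error 0.385, 95% interval -3.56 to -1.80, adjusted p = 0.00707, edgeR). The raw counts behind the TKO values were 19, 36 and 62. Tk1 was called lower whichever library was left out. Its mitochondrial counterpart Tk2 had 540, 446 and 452 normalized counts in TKO against 395, 410 and 446 in DKO libraries. Every TKO library lay above every DKO library (as 18% of all genes do), but TKO 2 (446.3) was barely above DKO 3 (445.5). The log2 fold change of Tk2 was 0.20 (95% interval -0.05 to 0.45, adjusted p = 0.235, edgeR). Per transcript length Tk1 stood to Tk2 as 0.0674, 0.142 and 0.282 to 1 in TKO, and as 1.44, 1.28 and 0.790 to 1 in DKO libraries. The lengths are those of the principal transcripts, 1440 bases for Tk1 and 2406 for Tk2. Over the exons of all transcripts they are 5198 and 3571 bases. Whether Tk1 stood above Tk2 in DKO libraries therefore depends on the length used, and the difference between the groups does not. The log2 ratio was lower by 3.00 in TKO retinae (exact permutation test, two-sided p = 0.1, the smallest possible).

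Tyms (chr5:30058202-30073617, minus strand) encodes thymidylate synthase, which methylates dUMP to dTMP with a folate cofactor. It had 205, 168 and 218 normalized counts in TKO against 486, 430 and 303 in DKO libraries. The groups were apart, with TKO 2 the lowest and DKO 3 the closest to the TKO libraries. The log2 fold change was -1.04 (standard error 0.189, 95% interval -1.48 to -0.61, adjusted p = 0.0113, edgeR). It was close to the fold limit and lost its call without TKO replicate 2 (log2 fold change -0.94, adjusted p = 0.0546), DKO replicate 1 (-0.89, adjusted p = 0.0493) or DKO replicate 2 (-0.9988, adjusted p = 0.0540) in edgeR. Dtymk (chr1:93792576-93801934, minus strand), the kinase that turns dTMP into dTDP and so serves both routes, had 348, 311 and 353 normalized counts in TKO against 546, 482 and 383 in DKO libraries. Every TKO library was below every DKO library, by a small margin at DKO 3. Its log2 fold change was -0.48 (95% interval -0.80 to -0.16), and the adjusted p of 0.0512 (edgeR) just missed the threshold; DESeq2 gave 0.0298.

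The hydrolases keep wrong nucleotides out of DNA. Dut (chr2:125247190-125258608, plus strand) encodes the dUTPase, which removes dUTP and supplies dUMP to thymidylate synthase. It had 450, 518 and 552 normalized counts in TKO against 942, 953 and 711 in DKO libraries. All TKO values were below all DKO values, and the log2 fold change was -0.78 (standard error 0.134, 95% interval -1.09 to -0.47, adjusted p = 0.0101, edgeR). Without DKO replicate 2 its adjusted p was 0.0501. Dctpp1 (chr7:127256959-127260709, minus strand), a pyrophosphatase that clears dCTP and modified forms of it, had 104, 136 and 114 normalized counts in TKO against 230, 225 and 162 in DKO libraries. The groups did not overlap, and DKO 3 again lay nearest to the TKO libraries. Its log2 fold change was -0.80 (standard error 0.185, 95% interval -1.22 to -0.37, adjusted p = 0.0237, edgeR), which missed 0.05 without TKO replicate 1 (0.0781), TKO replicate 2 (0.0576), DKO replicate 1 (0.0911) or DKO replicate 2 (0.100). Both genes fell by less than the fold limit for a call.

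Cad (chr5:31054780-31078479, plus strand) encodes the enzyme with carbamoyl phosphate synthetase, aspartate transcarbamylase and dihydroorotase activities that begins pyrimidine synthesis, for RNA as well as DNA. It had 813, 735 and 797 normalized counts in TKO against 973, 746 and 829 in DKO libraries. The groups overlapped, with DKO 2 among the TKO values, and the log2 fold change was -0.12 (95% interval -0.37 to 0.13, adjusted p = 0.478, edgeR). The interval leaves room for a fall, but not for one as large as that of any of the genes called lower.

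Per 1000 bases of transcript, the order of the 9 levels differed between the groups. The length used was that of the principal transcript of each gene, and the order within a group depends on that choice. Dtymk has 1003 bases by this length and 2631 over the exons of all its transcripts. For Rrm1 these lengths are 3997 and 11012 bases. In DKO retinae Rrm2 was first (582 ± 151 normalized counts per 1000 bases), ahead of Rrm1 (471 ± 106), Dtymk (469 ± 81.6) and Dut (446 ± 70.3), and the ranges of these neighbours overlapped. Dctpp1 (304 ± 56.4), Tk1 (200 ± 47.3), Tyms (128 ± 29.6) and Cad (119 ± 16.1) followed, the last 3 of them with ranges that overlapped from neighbour to neighbour, and Rrm2b was last (80.6 ± 1.02). In TKO retinae Dtymk (336 ± 23.2) and Dut (260 ± 26.8) came first, each apart from the next. Rrm1 (192 ± 15.4), Dctpp1 (175 ± 23.8), Rrm2 (120 ± 92.04) and Cad (110 ± 5.79) followed with ranges that overlapped, and below them stood Rrm2b (83.6 ± 2.95), Tyms (62.4 ± 8.20) and Tk1 (31.4 ± 19.4). Within TKO retinae the highest library was 5.17 times the lowest for Rrm2 and 3.49 times for Tk1, whereas it was 1.07 to 1.30 times for the other 7 genes. Within DKO retinae these ratios were between 1.02 (Rrm2b) and 1.66 (Rrm2).

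**Figure D2:**
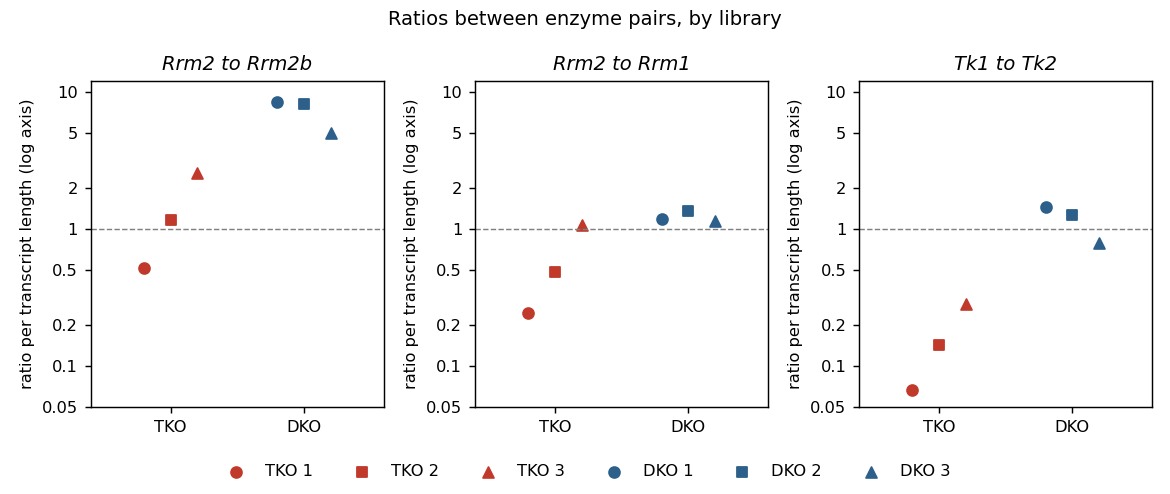
Ratios of 3 enzyme pairs per transcript length in each library (log y axis; red, TKO; blue, DKO; dashed line, equal levels per length). Rrm2 to Rrm2b is between 5.02 and 8.49 in DKO and between 0.518 and 2.55 in TKO libraries, and Tk1 to Tk2 is at most 0.282 in all 3 TKO libraries. Lengths are those of the principal transcripts, and where points lie relative to the dashed line depends on that choice.

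The libraries of a group were not alike. TKO 3 was the highest TKO library in 7 of the 9 genes, and DKO 3 was the lowest DKO library in 7 of the 9, so the libraries numbered 3 were the closest pair across the groups by the median centred log2 value of the 9 genes (-0.26 in TKO 3 and 0.11 in DKO 3). The same libraries stood apart in genes of dividing cells. The 10 genes of that list (Mki67, Top2a, Ccnb1, Prc1, Bub1b, Cdk1, Aurka, Pcna, Mcm6 and E2f1) summed to 2049, 3197 and 4926 normalized counts in TKO libraries 1, 2 and 3 and to 17240, 14360 and 9459 in DKO libraries 1, 2 and 3. Of these, 9 were called lower (4.38% of all genes were), and Bub1b was not (log2 fold change -0.55, adjusted p = 0.107, edgeR). This count is not an independent result, because the list was chosen with earlier results of these data known. The study had already reported Mki67, Pcna, Ccnb1 and E2f1 as lower in its RNA-seq of these retinae. Over all 10 the median was -2.32 on the log2 scale, the range was -3.21 to -0.55, and none was at 0 in any library. The largest mean normalized count over the 6 libraries was that of Pcna, the sliding clamp of the DNA polymerases, which fell by 1.27 on the log2 scale (adjusted p = 0.00821, edgeR). Of the 9 enzymes only Rrm2, Tk1 and Rrm1 had the libraries in the same order as that sum. Tyms and Dtymk had TKO 2 below TKO 1, and Dut had DKO 2 above DKO 1. Dctpp1, Cad and Rrm2b also departed from that order. In a bulk sample, fewer dividing cells and less RNA of these genes per cell cannot be told apart. With both libraries numbered 3 left out, a fit chosen after seeing the data, the same 4 genes were called lower, with log2 fold changes of -3.43 for Tk1 and -3.27 for Rrm2. Over all genes 7.34% were called lower in that fit.

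**Figure D3:**
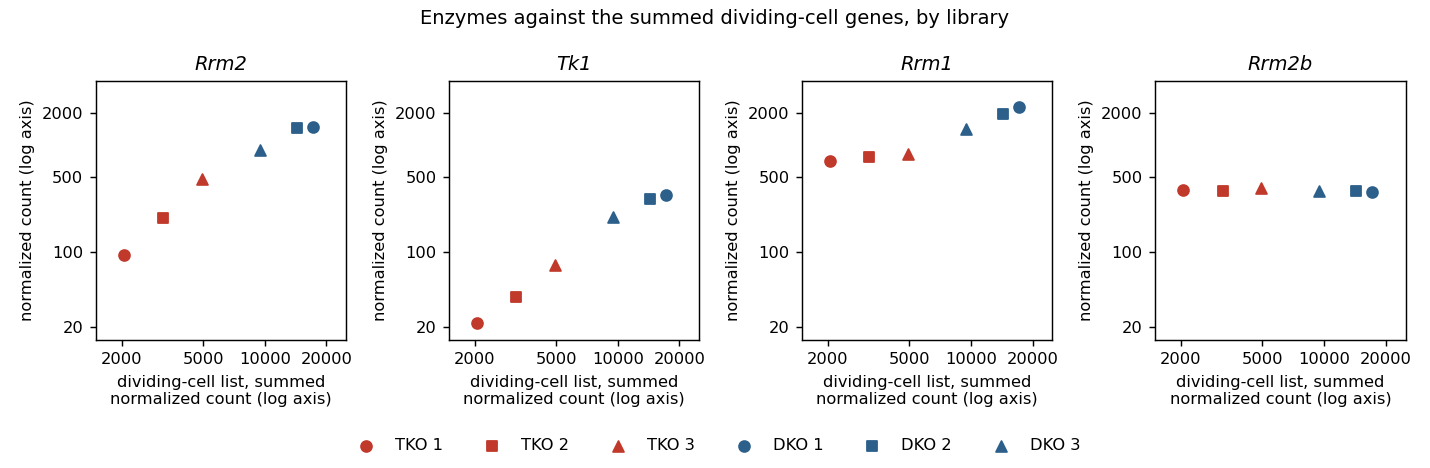
Normalized counts of Rrm2, Tk1, Rrm1 and Rrm2b (log y axis) against the summed normalized counts of the 10 dividing-cell genes (log x axis), with each point a library (red, TKO; blue, DKO). From left to right the libraries are TKO 1, TKO 2, TKO 3, DKO 3, DKO 2 and DKO 1, and only the first 3 panels rise. Tyms, Dtymk, Dut, Dctpp1 and Cad, which departed from this order, are not drawn.

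Markers of retinal cells were present in all libraries, and several differed between the groups. Only the microglial list had genes called lower, the direction of the enzymes, and the called markers of the other lists were higher. The 5 rod genes summed to 632500, 539700 and 307200 normalized counts in TKO against to 107600, 104300 and 199900 in DKO libraries, and all 5 were called higher, where 1.97% of all genes were. Of the cone genes 2 of 5 were called higher (median log2 fold change 1.14), of the Muller glia genes 1 of 5 (median 0.28) and of the retinal pigment epithelium genes 1 of 5 (median 1.24). The lists of bipolar (median 0.14), amacrine (-0.23), horizontal (-0.78), ganglion (0.17) and endothelial cells (0.50) held no called gene. The 6 microglial genes summed to 1046, 1290 and 1923 in TKO and to 2989, 3611 and 2489 in DKO libraries, and 5 of them were called lower (log2 fold changes -1.29 to -1.03), where 4.38% of all genes were. P2ry12 was not called (0.04, adjusted p = 0.945, edgeR), and Csf1r had the largest mean normalized count over the 6 libraries (not corrected for length). Of the 8 lens genes, 4 were called higher, all of them crystallins that were above every DKO library in each TKO library. TKO 2 was the highest, with a sum over the 8 of 3470 normalized counts, against 626 and 519 in TKO 1 and TKO 3 and 105 to 109 in the DKO libraries; Cryaa had the largest mean normalized count, and Lim2 was at 0 in all DKO libraries and TKO 1. Of the 5 blood genes the 4 globin genes had a count of 0 in all 6 libraries, and Alas2 was called higher. Counts of the Y-linked gene Kdm5d were 588 in TKO 1, 647 in DKO 1 and 563 in DKO 2 and 0 in the other libraries. A term for the presence or absence of these counts was added to the edgeR fit after seeing the data. With it, 3 of the 9 enzymes were called lower (Rrm1, Rrm2 and Tk1). Over all genes 3.9% were called lower in that fit. The part of these cell types in the change of the enzymes was not tested.

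The 39 other genes of nucleotide metabolism had a smaller median change. Of these, 2 were called lower and 1 higher, near the shares of all genes (4.38% and 1.97%); with the adjusted p alone, 13 were lower and 2 higher, where 9.2% and 7.35% of all genes were, and their median log2 fold change was -0.28. The folate cycle, which carries the methyl group for thymidylate synthase, had all 5 of its genes lower by adjusted p. Shmt1, the cytosolic serine hydroxymethyltransferase, had 49.3, 57.9 and 79.8 in TKO and 201, 179 and 104 in DKO libraries, with no overlap between the groups, and fell by 1.37 on the log2 scale (standard error 0.288, adjusted p = 0.0174, edgeR). The mitochondrial enzymes Mthfd2 (-0.78) and Shmt2 (-0.41) and the cytosolic Mthfd1 (-0.32) fell less. The number of genes called lower went from 2 to 1 without TKO replicate 1, TKO replicate 2, DKO replicate 1 or DKO replicate 2, where 1.86% to 2.93% of all genes were.

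In the pyrimidine list Ctps, which makes CTP from UTP, fell by 0.73 on the log2 scale (adjusted p = 0.00473, edgeR), with 604, 557 and 614 normalized counts in TKO against 997, 946 and 992 in DKO libraries. These groups were tight and far apart. Its paralogue Ctps2 (log2 fold change -0.22, adjusted p = 0.126, edgeR) did not pass, and neither did the other 2 genes of the list (-0.26 and 0.10). Of the 12 salvage genes and nucleotide kinases, Dck, which phosphorylates deoxycytidine, fell by 0.64 on the log2 scale (adjusted p = 0.0239, edgeR) and Nme2, a nucleoside diphosphate kinase, fell by 0.70 (adjusted p = 0.0151, edgeR). Nme1, which had the largest mean normalized counts of that list together with Guk1, had 0.11 on that scale (adjusted p = 0.562, edgeR). Guk1, the guanylate kinase that returns GMP to the GTP pool, was higher, with 2405, 2215 and 1587 normalized counts in TKO against 1002, 1138 and 1548 in DKO libraries. DKO 3 nearly reached TKO 3, and the log2 fold change was 0.75 (standard error 0.193, adjusted p = 0.0337, edgeR).

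In the purine list 4 of 10 genes fell by adjusted p and 1 rose, where 9.2% and 7.35% of all genes did. The genes that fell were Ppat, the first committed enzyme of the route (log2 fold change -0.61), Atic (-0.48), Paics (-0.36) and Adss (-0.35), the last on the branch to AMP. Impdh1, the IMP dehydrogenase of photoreceptors that leads to GMP, was called higher, with 10330, 9387 and 6250 normalized counts in TKO against 2983, 3132 and 4889 in DKO libraries. The groups did not overlap, and the libraries had the same order as in the summed rod genes apart from the pair DKO 1 and DKO 2. Its log2 fold change was 1.24 (standard error 0.237, adjusted p = 0.0130, edgeR), and that of Impdh2, the form of proliferating cells, was -0.27 (adjusted p = 0.0815, edgeR). Among the 8 genes of breakdown, Itpa, which clears inosine triphosphates, fell by 0.33 on the log2 scale (adjusted p = 0.0496, edgeR). Samhd1, which destroys deoxynucleotides in cells outside S phase, had 700, 567 and 550 normalized counts in TKO against 687, 674 and 575 in DKO libraries. These overlapped, and the log2 fold change was -0.09 (95% interval -0.37 to 0.18, adjusted p = 0.634, edgeR).

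**Figure D4:**
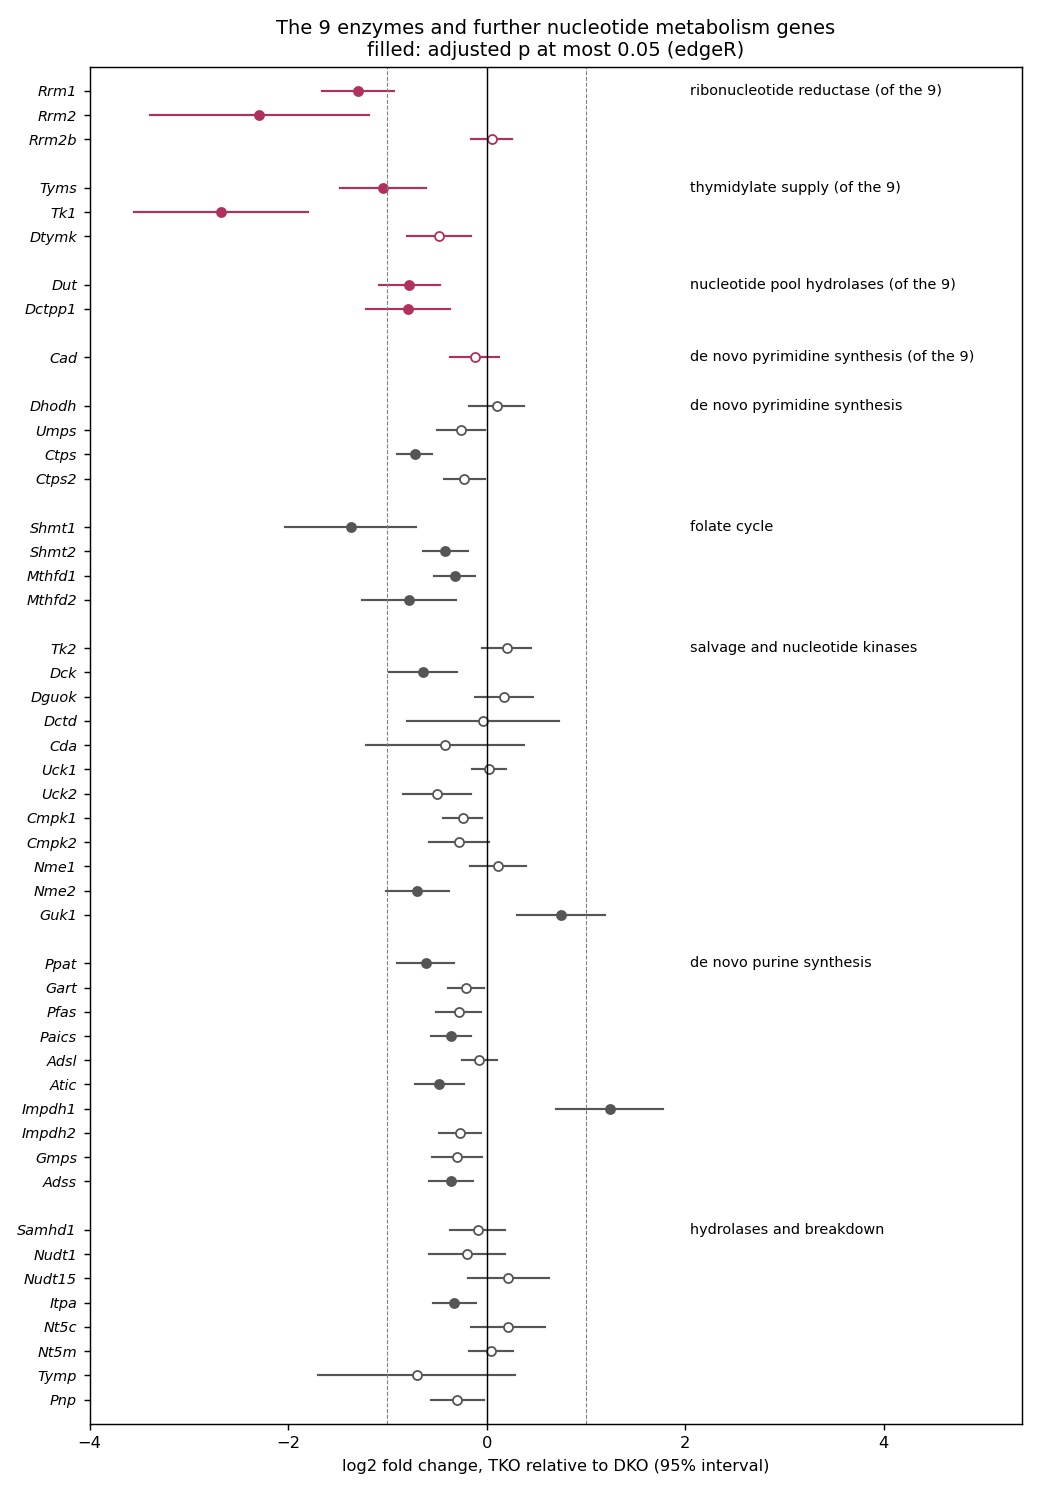
Log2 fold changes of TKO relative to DKO retinae for the 9 enzymes (pink) and other nucleotide metabolism genes (grey), with 95% intervals (x axis; filled points, adjusted p at most 0.05 in edgeR; dashed lines, -1 and 1). The 9 enzymes span -2.68 (Tk1) to 0.05 (Rrm2b), and among the others drawn only Shmt1 and Impdh1 are filled and lie beyond the dashed lines.

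Since Rrm2b is a known p53 target, 8 genes that p53 switches on were read as well. Of these, 1 was called lower, Cdkn1a (log2 fold change -1.45), the inhibitor of cyclin-dependent kinases, and 3 were lower by adjusted p alone, where 4.38% and 9.2% of all genes were. The median log2 fold change was -0.16 (range -1.45 to 0.23), and Ccng1, with the largest mean normalized count (not corrected for length), had 0.23 (adjusted p = 0.0997, edgeR). Among 14967 other genes with a mean normalized count of at least 10, the profiles over the 6 libraries most like that of Rrm1 (smallest root mean square difference of centred log2 values) were Insc (0.0457), Lmnb1 (0.0703) and Foxj1 (0.0739). Those most like Rrm2 were Sgol2 (0.0994), a protector of centromeric cohesion also written Sgo2a, Ccdc122 (0.107) and Uhrf1 (0.109), which brings the maintenance DNA methyltransferase to replicated DNA. Those most like Rrm2b were Mrpl40 (0.0177), Exoc7 (0.0178) and Adrbk1 (0.0239). These genes had log2 fold changes of -1.33 to -1.32 for the Rrm1 neighbours, of -2.51 to -2.44 for the Rrm2 neighbours and of 0.03 to 0.06 for the Rrm2b neighbours.

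Some of the counts could hold reads of other genes. Tk1 overlaps Afmid on the opposite strand by 169 bases and lies within the span of the opposite-strand model Gm20708, which has no row of its own in the count table; Afmid had raw counts of 69, 87 and 77 in TKO against 161, 173 and 103 in DKO libraries. Rrm2b overlaps Gm3362 and Gm49085, and Rrm1 overlaps Gm45399, which likewise have no row. Transcripts over 90% identical along at least 400 bases were found for Rrm2 (Gm48455, 95.5% over 419 bases), Rrm2b (Gm8616, 96.1% over 1051 bases), Dctpp1 (Gm7653, 91.2% over 513 bases) and Tyms (Tyms-ps, 93.9% over 935 bases), of which only Tyms-ps has a row, at 0 in all libraries. Tyms also shares shorter stretches of 200 to 399 bases with transcripts of 173 other genes. The strand setting of the counting was not stated, so how reads were split between these genes is uncertain.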

How the data were processed

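RNA-seq read counts were analysed from 3 TKO and 3 DKO retinae at P21, grouped by sample title. The deposited values are raw counts per gene symbol, which the authors made from 100-base read pairs of stranded poly(A) libraries. The study's methods name STAR and HTSeq on GRCm38, and the submitters' processing notes name TopHat2, featureCounts and DESeq2; which of these made the table was not settled, and the strand setting was not given in the sources used here. Totals ranged from 10343907 to 14203098, and replicates differed by more than counting error (chi-square per degree of freedom 8.19 to 23.4).

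Genes with a summed count under 10 were removed. edgeR 4.0.16 in R 4.3.3 (TMM scaling, quasi-likelihood test, Benjamini-Hochberg adjustment over 16904 genes) was the main test; DESeq2 1.42.0, which the study used, was an alternative. The test was checked on simulated data. Normalized counts are scaled to the mean of the TMM-corrected library sizes, and standard errors were derived from the log2 fold change and its F statistic. The study's call criteria were used, with DESeq2's size factors for the mean. Ratios used counts plus 0.5. Gene positions and the length of the principal transcript of each gene are from GENCODE M21 (GRCm38), and near-identical transcripts were sought with blastn 2.17.0. Named were the 9 enzymes, Hells, Rb1 and Rbl1, the genes of each pathway list with an adjusted p of at most 0.05 and its most abundant genes, the most abundant gene and range of the context lists, and the 3 most alike profiles of the reductase genes. Impdh2, Bub1b, Cdkn1a, Alas2, Lim2 and Kdm5d were added after their values were seen. Some genes that this rule names are not reported here. The members and lists were chosen with earlier results of these data known. The ATAC-seq of the study was not analysed here.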

Additional observations from a re-analysis of the deposited data

How the results depend on the processing

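The counts of genes called lower (4 of the 9 enzymes, 2 of the 39 other genes) and of enzymes lower by adjusted p (6) kept within 1.5 times their value under DESeq2, RLE, upper-quartile and total-count scaling, no filter, filterByExpr and robust dispersion estimates. Under these settings 4.02% to 5.82% of all genes were called lower. With the replicate block in edgeR, no enzyme was called (0), 0 were lower by adjusted p and 0 of the other genes were called, while over all genes 75 (0.444%) were called lower; the log2 fold change was then -1.27 for Rrm1 (adjusted p = 0.0552, edgeR), -2.73 for Tk1 (0.0566), -1.02 for Tyms (0.0599) and -2.49 for Rrm2 (0.0706). Whether the numbers pair the libraries was not known. Same-numbered libraries deviated from their group means with correlations of 0.07, -0.04 and -0.18 over 14976 genes. With 3 libraries a group, such values cannot decide whether the libraries were paired. With 1 library left out, 2 to 4 enzymes were called lower, 2 to 7 were lower by adjusted p and 1 to 3 of the other genes were called lower. The share of all genes called lower moved as well, from 1.86% without TKO replicate 2 to 6.11% without TKO replicate 3. Rrm1 and Tk1 were called in each of these fits; Rrm2 and Tyms were lost without TKO replicate 2, DKO replicate 1 or DKO replicate 2. A test against a fold of 1.5 (glmTreat) called 2 (Rrm1 and Tk1), as did an adjusted p of at most 0.01 (2). Over all genes 1.95% and 1.73% were then called lower. Of the alternatives added after seeing the data, leaving out both libraries numbered 3 kept the calls of the 9 enzymes. In that fit 3 of the other genes were called lower. The other alternative, a term for the presence or absence of Y-linked counts, left 1 of the other genes called. The shares of all genes called lower in these 2 fits were 7.34% and 3.9%. Rrm2b reversed under total-count scaling (log2 fold change -0.10, adjusted p = 0.508, edgeR), which moved the median of all genes from -0.01 to -0.17. The log2 ratios kept their direction under all alternatives, from -3.18 to -2.03 for Rrm2 to Rrm2b, -1.82 to -0.76 for Rrm2 to Rrm1 and -3.51 to -2.49 for Tk1 to Tk2 with 1 library left out. With 3 libraries a group these p-values could not fall below 0.1.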
